A study of Mus musculus with 18 samples.

Results

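Chemokines are small secreted or membrane-bound proteins that direct the migration of leukocytes along a gradient, and their receptors are G protein-coupled receptors that signal through Gi proteins. The transcripts of this family were measured in mouse knee cartilage after rupture of the anterior cruciate ligament (ACL). The family was taken by symbol from the mouse annotation, as the protein-coding genes whose symbol starts with Ccl, Cxcl, Ccr, Cxcr or Ackr and a digit, with Xcl1, Xcr1, Cx3cl1 and Cx3cr1. These rules gave 60 of the 49184 genes that had a transcript in the data, namely 37 ligands, 19 signalling receptors and 4 atypical receptors. Another 7 entries, annotated on unplaced scaffolds, were not analysed here.

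All mice were 12-week-old male C57Bl/6J animals of wild type. In the injured groups the ACL of the right knee was ruptured by a single 12 N load, and the left knee of the same animals was the contralateral control. Cartilage of the femoral condyle was taken 1 day or 7 days later, and a further group of naïve mice was not loaded. Total RNA depleted of ribosomal RNA was sequenced in 18 libraries, 6 from naïve knees and 3 from each of the day 1 contralateral, day 1 injured, day 7 contralateral and day 7 injured groups. Each library was a pool, of 2 mice at day 1, 4 mice at day 7 and 2 knees in the naïve group. Left and right knees of the 6 naïve mice went into separate pools. Every naïve library therefore shared animals with another, and the labels do not say with which. Every library was taken as 1 independent sample, and n is the number of libraries rather than of mice. Totals of estimated counts per library lay between 16074762 and 41794005. Levels within a gene are given as counts per 1000000 (CPM) after TMM normalisation, in which 3 counts were worth between 0.0701 and 0.234 CPM.

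By background, chemokines are named after the spacing of their first cysteines as CC, CXC, C or CX3C. CXC chemokines with an ELR motif draw neutrophils through Cxcr2, Ccl2 and Ccl7 draw monocytes through Ccr2, and the interferon-inducible Cxcl9 and Cxcl10 draw T cells through Cxcr3. Cxcl12 retains blood progenitors and neutrophils in the marrow through Cxcr4. Atypical receptors bind chemokines without coupling to G proteins and remove or transport them. In the injured joint, synovium, vessels, marrow and chondrocytes can all be sources of chemokines.

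The labels name the cells as chondrocytes, and the RNA held transcripts of other cells as well. Summed over 13 cartilage genes, of which Col2a1 was the most abundant, chondrocyte markers lay between 3740 and 14122 CPM over the 18 libraries. Erythroid genes summed to between 16677 and 64632 CPM, neutrophil and marrow myeloid genes to between 8309 and 17039 CPM, and skeletal muscle genes to between 2354 and 12100 CPM. No gene of the 17 marker lists that was found in the data was at 0 in every library. In such mixed samples, fewer cells of a type and less RNA per cell cannot be told apart.

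A pair of patterns set single libraries apart. Library 1 of the day 7 contralateral group had the highest erythroid sum (64632 CPM) and the highest chondrocyte sum (14122 CPM), and its 10 most abundant genes took 42.5% of its counts, against 16.6% to 29.8% in the other libraries. Library 2 of the day 1 injured group, library 3 of the day 1 contralateral group and library 5 of the naïve group stood apart by several chemokines, which are described after the levels in the naïve group. Values without them are given beside the main results that rest on them.

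In naïve cartilage Cxcl12 was by far the most abundant transcript of the family per length. Its level in transcripts per 1000000 (TPM), which divides by length, was 141 TPM ± 14.1 (SD, n = 6). It was followed by its receptor Cxcr4 at 49.7 TPM ± 6.24 and by Ccl6, a myeloid chemokine that binds Ccr1, at 36.6 TPM ± 7.12. The steps from Cxcl12 to Cxcr4 and from Cxcr4 to Ccl6 were larger than the SD of either gene. The monocyte receptor Ccr2 (22.7 TPM ± 8.48), the neutrophil receptor Cxcr2 (18.9 ± 2.56), Cxcl14 (17.1 ± 6.87) and Ccl9 (14.3 ± 6.02), a further ligand of Ccr1, followed. The step from Ccl6 to Ccr2 was also larger than the SD of either gene. From Ccr2 down to Ccl9, each step was smaller than the larger SD of the neighbouring genes. Ccr1 stood at 9.69 TPM ± 1.93. Ackr1, which carries chemokines on red cells and venous endothelium, had 7.17 TPM ± 1.15, and Ackr3, which scavenges Cxcl12, had 4.38 TPM.

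**Figure D1:**
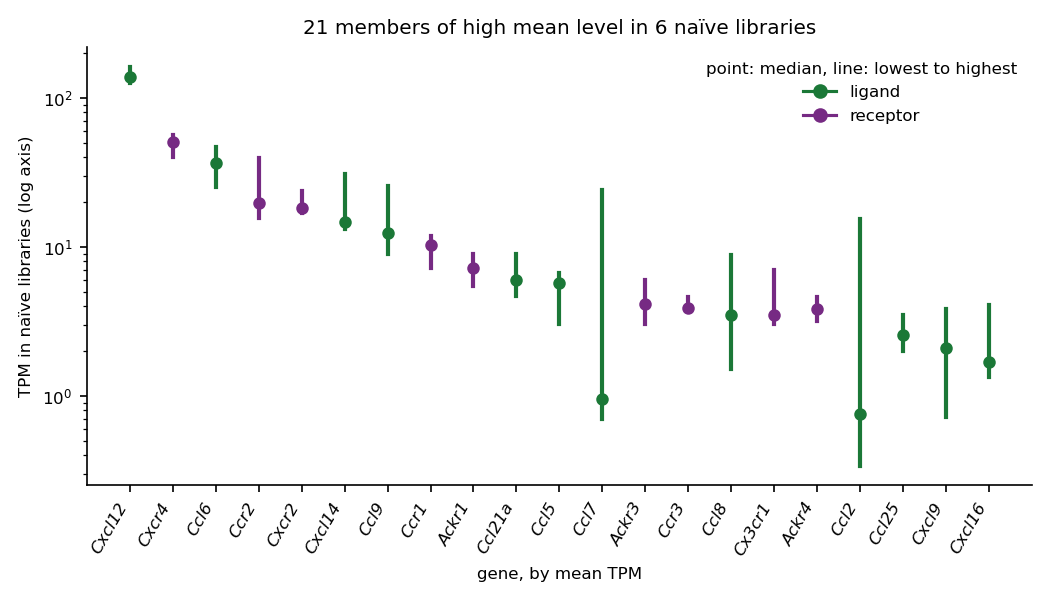
TPM in the 6 naïve libraries (log axis) of 21 members of high mean level, with points for medians and lines from the lowest to the highest library. Ligands are drawn in green and receptors in purple, and Cxcl12 stands above all others at a mean of 141 TPM.

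At the other end, 10 members did not pass the filter on low counts. Ccl26 and Ccl27b had 0 counts in all 18 libraries together, Ccl1 had 1, Ccr8 had 10, Ccl20 had 11 and Cxcl17 had 23. Ccl17 had 64 counts, Cxcl15 had 69, Ccr4 had 74 and Ccr1l1 had 93, and none of the 10 exceeded 0.494 CPM in any library. The other 50 members were tested.

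None of the 4 most abundant ligands was called in any comparison between groups with all libraries in the fit. Cxcl12 (chr6:117168535-117181367 in GRCm38) had a lowest, median and highest value of 679, 755 and 840 CPM in naïve libraries. It had 810, 656 and 798 CPM in the 3 day 1 contralateral libraries, 738, 792 and 771 in day 1 injured, 684, 843 and 802 in day 7 contralateral and 682, 737 and 649 in day 7 injured libraries. Every group overlapped with the naïve range, and the day 7 injured libraries lay below those of day 1 injured. Ccl6 had 37.0, 59.0 and 70.1 CPM (lowest, median, highest) in naïve libraries, and 53.5, 50.2 and 52.4 in day 7 injured ones, below all 3 day 7 contralateral libraries (69.4, 78.1 and 68.7). Its day 1 contralateral libraries had 54.0, 57.0 and 77.1 CPM and its day 1 injured libraries 66.4, 74.3 and 57.0, within the range of the others. Ccl9, which attracts myeloid cells like Ccl6, showed overlap between all groups. It had 27.4, 37.4 and 59.0 CPM in naïve libraries, 38.6, 41.8 and 40.9 in day 7 injured, 31.6, 47.8 and 39.0 in day 7 contralateral, 48.7, 62.7 and 26.9 in day 1 injured and 31.2, 34.7 and 59.5 in day 1 contralateral libraries. Cxcl14, a ligand found in many epithelia and stromal cells, had 41.8, 48.9 and 93.7 CPM in naïve libraries and reached its highest value, 134, in library 3 of the day 1 contralateral group, whose other libraries had 46.3 and 42.3. Its values were 62.0, 96.5 and 46.7 CPM in day 1 injured, 47.0, 45.0 and 49.7 in day 7 contralateral and 77.8, 56.5 and 55.5 in day 7 injured libraries.

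The 4 most abundant receptors are known from marrow leukocytes, and none was called in any comparison with all libraries in the fit. Cxcr4 had 122, 128 and 143 CPM (lowest, median, highest) in naïve libraries, and all 3 day 7 injured libraries lay below them at 107, 97.5 and 100 CPM. Its lowest value of all, 61.3 CPM, was in day 7 contralateral library 1, whose fellows had 148 and 143, and the day 1 libraries had 136, 139 and 148 (contralateral) and 126, 142 and 96.4 (injured). Ccr2 had 112, 127 and 236 CPM in naïve, 131, 151 and 218 in day 1 contralateral, 123, 211 and 106 in day 1 injured, 125, 171 and 134 in day 7 contralateral and 128, 123 and 89.9 in day 7 injured libraries. The 3 highest values of Ccr2 stood in the libraries named above. Cxcr2, the receptor of the ELR chemokines, had 89.2, 103.4 and 137 CPM in naïve libraries, 98.0, 120 and 95.2 in day 1 contralateral, 132, 83.3 and 109 in day 1 injured, 78.6, 156 and 117 in day 7 contralateral and 90.5, 82.8 and 75.4 in day 7 injured libraries. Ccr1 had 34.6, 52.8 and 58.8 CPM in naïve, 45.1, 55.0 and 59.7 in day 1 contralateral, 60.2, 58.2 and 44.7 in day 1 injured, 33.3, 69.7 and 52.9 in day 7 contralateral and 43.9, 39.9 and 36.9 in day 7 injured libraries. Day 7 injured values of both genes overlapped with the naïve range, and 2 of those of Cxcr2 lay below it. Without day 7 contralateral library 1, Cxcr2 was called lower in day 7 injured than in day 7 contralateral libraries (log2 -0.69, FDR 0.0206 in edgeR).

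While the sum over Cxcl12 varied little, the shares of its transcripts did not stay the same. Cxcl12-202 took 41.8% to 45.0% of the gene's TPM in the day 7 injured libraries and 30.8% to 37.2% in all 15 others. Cxcl12-203 took 43.7% to 46.5% in the day 7 injured libraries and 47.1% to 57.1% in the others. Both transcripts are annotated as protein coding. The groups did not overlap for either share, which was looked at after the values were seen and was not tested.

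Several inflammatory chemokines were high in the same 3 libraries, which belong to 3 different groups. Ccl2 (chr11:82035571-82037453), which draws monocytes, had 17.9 CPM in naïve library 5, 13.3 in day 1 contralateral library 3 and 15.1 in day 1 injured library 2, and at most 3.13 CPM in the 15 other libraries. Its neighbour Ccl7 (chr11:82045712-82047525) had 26.9, 18.4 and 17.4 CPM in these libraries and at most 3.24 elsewhere. The libraries were picked by these 2 genes, so that their values there are a description only.

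Neutrophil-attracting ligands were high in them too. Cxcl5 (chr5:90759360-90761624) had 15.1 CPM in naïve library 5, 20.7 in day 1 contralateral library 3 and 17.04 in day 1 injured library 2, against 0.912 to 3.91 elsewhere. Cxcl1 had 4.06, 5.79 and 10.1 CPM there and at most 2.45 in the others, the highest of which was day 7 injured library 3. Cxcl2 was rarer, at 0.796, 0.771 and 0.763 CPM against at most 0.324. Cxcl3 had 0.676, 1.94 and 1.65 CPM, and its naïve value was level with the 0.679 of day 1 injured library 1. Fellow libraries of the same groups were low. Ccl2, for instance, had 0.322 and 0.993 CPM in the remaining day 1 contralateral libraries and 3.13 and 0.373 in the remaining day 1 injured ones, and its naïve median was 1.14.

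**Figure D2:**
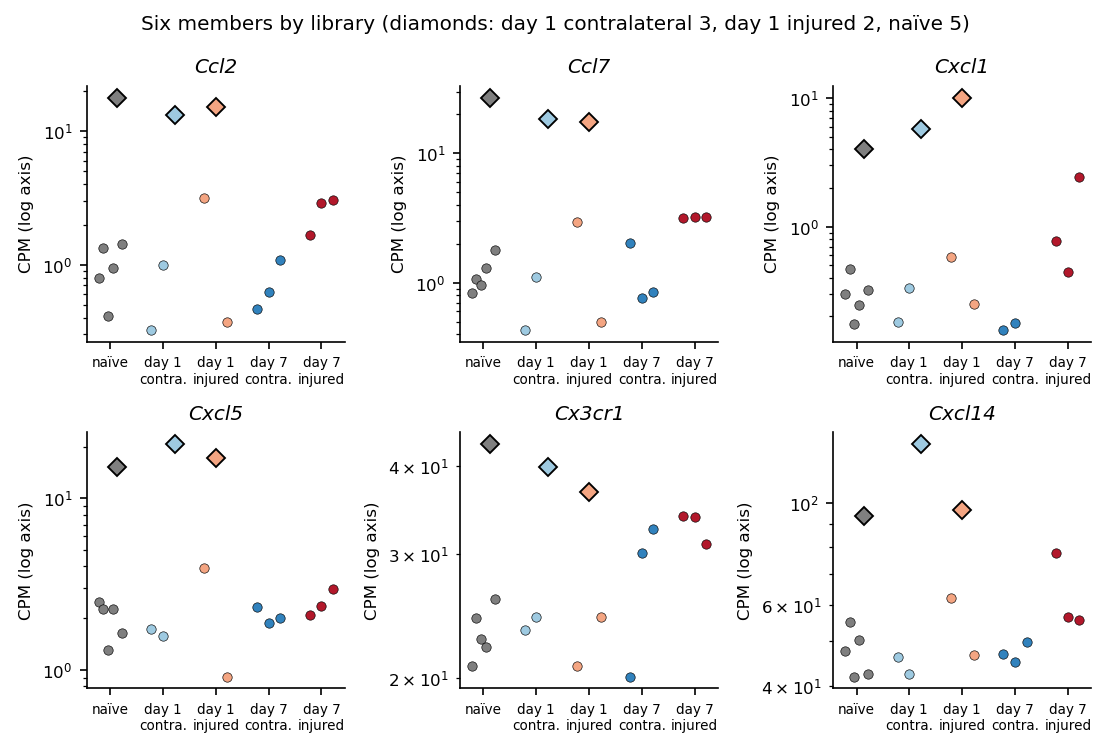
CPM (log axis) of Ccl2, Ccl7, Cxcl1, Cxcl5, Cx3cr1 and Cxcl14 in each library of the 5 groups, with diamonds for naïve library 5, day 1 contralateral library 3 and day 1 injured library 2. The diamonds are the 3 highest points of each gene, and Cxcl1 is at 0 in day 7 contralateral library 3, which a log axis cannot show.

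Over the family, 10 of the 50 members tested (20%) had their 3 highest values of all 18 libraries in these 3, against 0.71% of the 21262 genes tested. Ccl2 and Ccl7, which picked the libraries, are 2 of the 10, and without them it was 8 of 48 (16.7%). Beside genes above they included the receptors Ccr2 and Cx3cr1 and the ligands Ccl9 and Cxcl14. Cx3cr1, the fractalkine receptor of monocytes and macrophages, had 42.9, 39.9 and 36.7 CPM in naïve library 5, day 1 contralateral library 3 and day 1 injured library 2, and at most 34.0 elsewhere.

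The same libraries were high in other genes. The scavenger receptor Msr1 had 49.3, 42.9 and 41.0 CPM in them in the same order and at most 18.4 elsewhere, and Il6, which encodes an inflammatory cytokine, had 2.03, 2.57 and 3.21 against at most 0.925. Pdpn, a marker of synovial lining fibroblasts, had 45.5, 54.1 and 47.5 CPM, close to the 40.8 to 52.4 of the day 7 injured libraries and above the 5.69 to 15.2 of all the rest. The summed synovial fibroblast markers, of which Pdpn is 1 of 8, were 335, 321 and 309 CPM in the same 3 libraries, within or below the 312 to 483 of the other libraries outside the day 7 injured group, whose sums were 742 to 891 CPM. Their summed adipocyte markers (283, 295 and 223 CPM) were the lowest of their groups, and so were their skeletal muscle markers (3048, 4428 and 3368 CPM). The summed macrophage and monocyte markers, led by Lyz2, were 2960, 3212 and 2717 CPM, within the 2541 to 3971 of the other libraries. The part of these markers in the chemokine values was not tested.

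**Figure D3:**
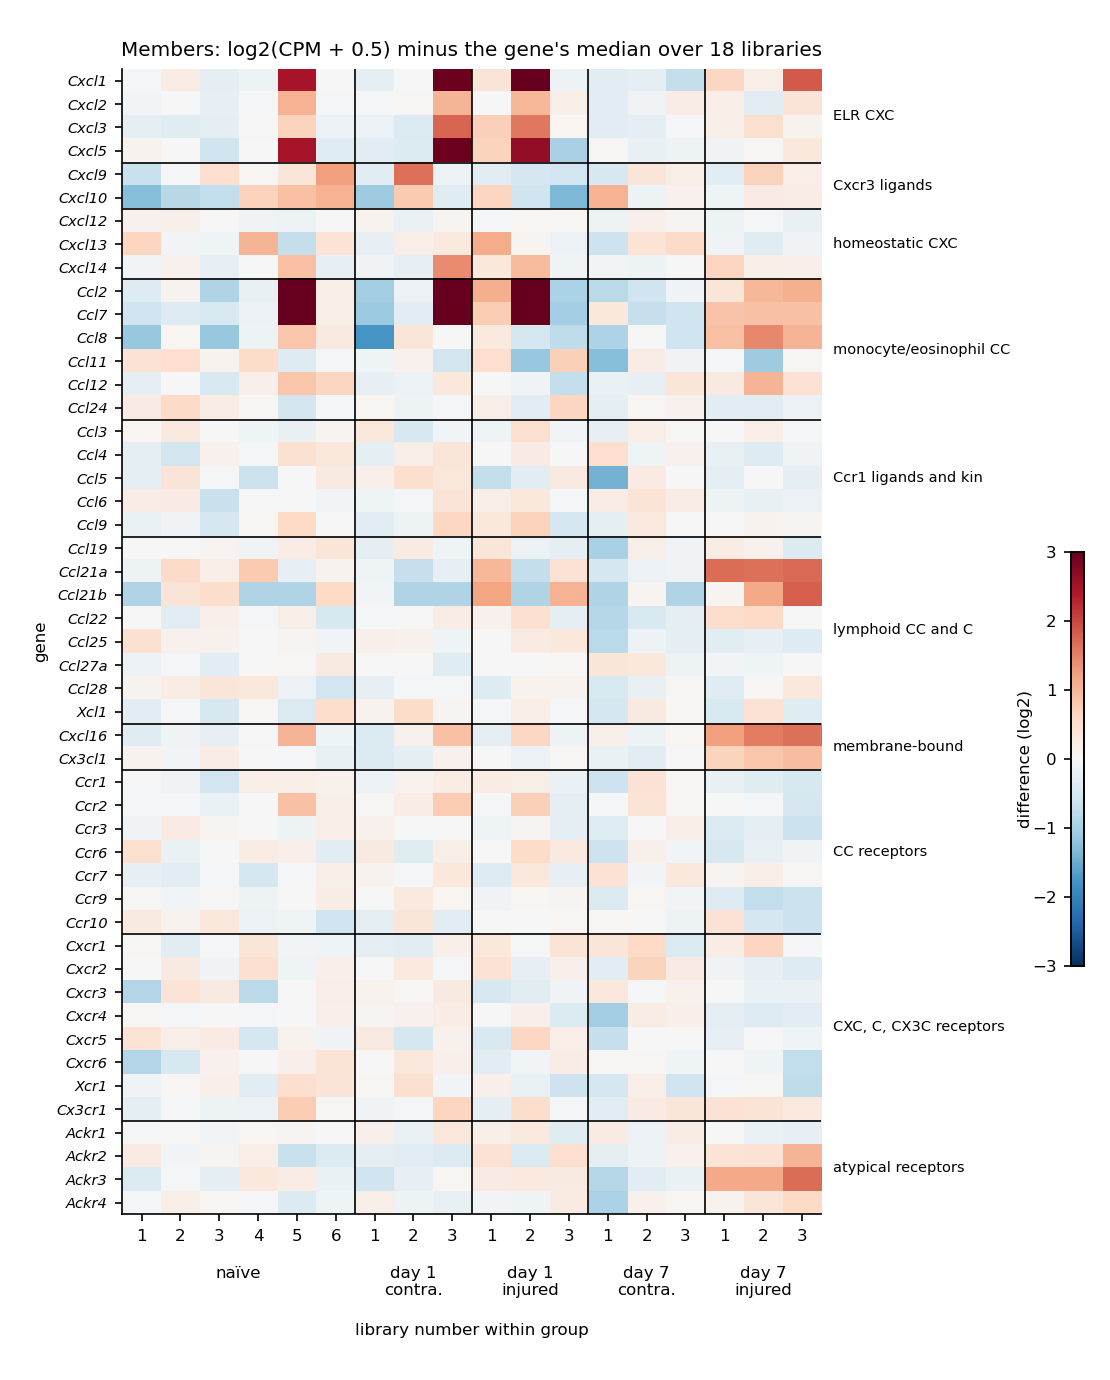
Heat map of 49 members tested (rows, by role) in the 18 libraries (columns, by group), coloured by log2(CPM + 0.5) minus the median of the gene over all libraries, with the scale ending at 3 in either direction. Naïve 5, day 1 contralateral 3 and day 1 injured 2 show red columns among the inflammatory ligands, and the day 7 injured libraries show red in Ackr3, Ccl21a, Cxcl16 and Cx3cl1.

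The promoters of Cxcl1, Cxcl2 and Cxcl3 are shown because they carry an identical run of letters. RefSeq windows on GRCm38.p6, from 250 bases before to 50 after each annotated start, were found for 46 of the 60 members (53 windows), and Cxcl5 was not among them. The NF-kB consensus was searched by name on both strands, along with TATAAA and GAAANNGAA, a pattern of interferon-response elements. Capitals mark matches to these motifs in the Cxcl1 (chr5:90890995-90891294), Cxcl2 (chr5:90903649-90903948) and Cxcl3 (chr5:90785851-90786150) windows, all on the plus strand, and in that of the interferon-inducible Cxcl10 (chr5:92348840-92349139, minus strand), which did not follow these 3 libraries and is given for contrast.
Cxcl1: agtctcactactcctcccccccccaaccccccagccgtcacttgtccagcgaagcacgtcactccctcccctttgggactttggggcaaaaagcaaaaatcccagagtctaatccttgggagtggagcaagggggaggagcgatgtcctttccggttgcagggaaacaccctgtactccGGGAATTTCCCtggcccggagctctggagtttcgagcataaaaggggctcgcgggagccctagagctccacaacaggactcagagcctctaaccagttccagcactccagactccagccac
Cxcl2: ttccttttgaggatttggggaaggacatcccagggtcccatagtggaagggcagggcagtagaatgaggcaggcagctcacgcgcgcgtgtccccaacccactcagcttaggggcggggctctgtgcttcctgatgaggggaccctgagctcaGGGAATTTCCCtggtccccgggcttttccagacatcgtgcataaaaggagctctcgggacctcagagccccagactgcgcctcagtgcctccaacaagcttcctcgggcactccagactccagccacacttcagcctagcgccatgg
Cxcl3: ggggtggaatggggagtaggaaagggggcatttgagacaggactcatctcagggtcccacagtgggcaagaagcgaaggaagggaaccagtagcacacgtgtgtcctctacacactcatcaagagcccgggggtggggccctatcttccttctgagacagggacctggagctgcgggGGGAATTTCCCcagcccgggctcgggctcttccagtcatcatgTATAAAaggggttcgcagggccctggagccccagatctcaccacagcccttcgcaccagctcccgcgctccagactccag
Cxcl10: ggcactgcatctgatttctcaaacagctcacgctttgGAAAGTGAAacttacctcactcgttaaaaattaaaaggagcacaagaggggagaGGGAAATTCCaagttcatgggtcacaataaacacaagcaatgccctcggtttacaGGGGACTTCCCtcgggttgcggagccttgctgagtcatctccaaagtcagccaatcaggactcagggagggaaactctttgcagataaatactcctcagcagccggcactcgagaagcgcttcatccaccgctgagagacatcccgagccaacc

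Cxcl1, Cxcl2 and Cxcl3 share the same run of 11 bases, in which 2 matches to the NF-kB consensus overlap and which ends 60, 86 and 62 bases before their starts. Cxcl3 holds a TATAAA as well, 24 bases before its start. Cxcl10 has a GAAANNGAA match and 3 NF-kB matches, 2 of which overlap in 1 run of capitals. The NF-kB consensus was found in 12 of the 53 windows of the family (22.6%) and in 8.46% of all 32851 windows, TATAAA in 15 (28.3%) and 13.6%, and GAAANNGAA in 8 (15.1%) and 8.56%. Of other members high in the 3 libraries, Ccl9 held an NF-kB match, and Ccr2 and Cxcl14 held GAAANNGAA alone. For Ccl2, Ccl7 and Cx3cr1 no match was found, though not every member had a window. A match is a description of letters and not a binding site.

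Cxcl9 and Cxcl10 followed neither the 3 libraries nor the injury. Cxcl9 had 3.70, 7.31 and 15.2 CPM (lowest, median, highest) in naïve libraries, with the highest in library 6, and 20.5 in day 1 contralateral library 2, beside 4.83 and 5.44 in the others of that group. It had 4.91, 4.26 and 4.02 CPM in day 1 injured, 4.29, 8.11 and 7.06 in day 7 contralateral and 4.95, 10.3 and 7.17 in day 7 injured libraries. The same pair of libraries had the highest levels of the interferon-response factor Irf1 (90.0 and 92.1 CPM). Cxcl10 ranged from 0.870 to 6.74 CPM, with overlap between all groups.

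At day 7 after injury the family changed in a few members against naïve cartilage. The atypical receptors Ackr3 and Ackr2, both membrane-bound chemokines Cx3cl1 and Cxcl16 and the lymphoid chemokine Ccl21a rose, and the receptor Ccr9 fell. These were 5 of 50 members higher (10%) and 1 lower (2%) in edgeR's quasi-likelihood test (FDR ≤ 0.05 and ≥ 1.5-fold), beside 10.4% and 6.11% of all 21129 genes tested. The share of members that rose was therefore close to that of all genes. The median log2 fold change was -0.11 over the members and -0.04 over all genes. By the FDR alone, 6 members were higher (18.7% of all genes) and 4 lower (11% of all genes). For 6 members, the 5 above and Ccl8, each of the 3 day 7 injured libraries exceeded each naïve library in CPM (17.4% of all genes), and each lay below for Ccl25, Ccr3, Ccr9 and Cxcr4 (10.8% of all genes). In TPM, which has no TMM scaling, Ackr3, Ccl21a, Ccr3, Ccr9 and Cxcr4 remained apart from naïve. Day 7 injured and naïve libraries overlapped in TPM for Cx3cl1 (1.14 to 2.29 against 0.803 to 1.67) and Cxcl16 (3.12 to 5.32 against 1.33 to 4.07). Ackr2 (0.907 to 1.88 against 0.676 to 1.90), Ccl8 and Ccl25 overlapped in TPM as well.

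**Figure D4:**
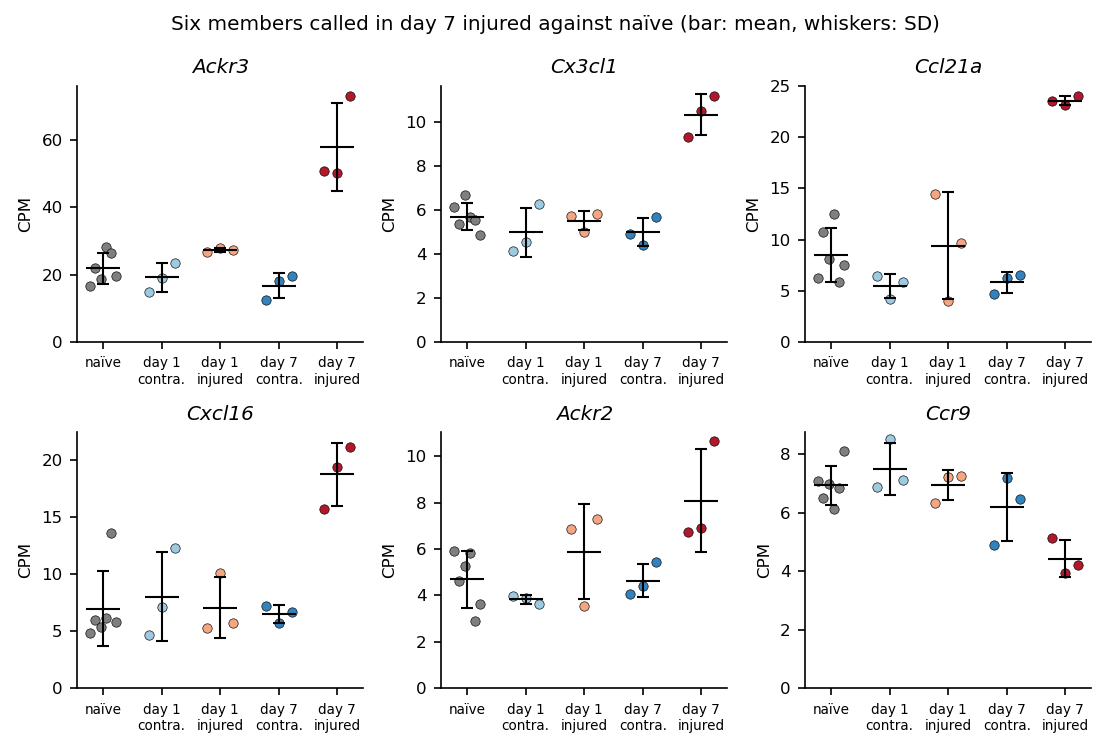
CPM of Ackr3, Cx3cl1, Ccl21a, Cxcl16, Ackr2 and Ccr9 in each library (points) with the group mean (bar) and SD (whiskers). In the first 5 genes the points of the day 7 injured group lie above all naïve points, and in Ccr9 below them.

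Among the atypical receptors, Ackr3 (chr1:90203980-90216751), which binds Cxcl12 and Cxcl11 and internalises them, had a lowest, median and highest value of 16.5, 20.7 and 28.2 CPM in naïve libraries. Its values were 14.9, 19.1 and 23.6 CPM in day 1 contralateral, 26.8, 27.9 and 27.3 in day 1 injured, 12.4, 18.1 and 19.6 in day 7 contralateral and 50.9, 50.1 and 73.0 in day 7 injured libraries. In CPM the day 7 injured libraries stood clear of all the others, and the day 1 injured libraries above all contralateral ones. In TPM the day 7 injured libraries (6.90 to 12.7) overlapped with the day 1 injured ones (6.51 to 9.84). The log2 fold change of Ackr3 against naïve was 1.42 (SE 0.17), a 2.68-fold rise with an FDR of 1.82e-05 in edgeR. Ackr2 (chr9:121898355-121911074), a scavenger of inflammatory CC chemokines, had 2.90, 4.96 and 5.93 CPM in naïve, 3.97, 3.90 and 3.62 in day 1 contralateral, 6.85, 3.53 and 7.29 in day 1 injured, 4.05, 4.41 and 5.44 in day 7 contralateral and 6.72, 6.91 and 10.6 in day 7 injured libraries. Its day 7 injured libraries overlapped with the day 1 injured ones only. The rise was 1.75-fold (log2 0.80, SE 0.24, FDR 0.0219 in edgeR), and without day 7 injured library 3 it was 0.56 with an FDR of 0.163. Ackr4, which binds Ccl19, Ccl21 and Ccl25, was higher by a log2 fold change of 0.46 (FDR 0.0237 in edgeR), under the 1.5-fold limit. Ackr1 did not pass the test (-0.12, FDR 0.547).

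Both chemokines that are made as membrane proteins with a mucin stalk rose. Cx3cl1 (chr8:94772009-94782427), or fractalkine, had 4.85, 5.62 and 6.67 CPM in naïve, 4.15, 4.56 and 6.26 in day 1 contralateral, 5.75, 5.02 and 5.80 in day 1 injured, 4.91, 4.41 and 5.68 in day 7 contralateral and 9.35, 10.5 and 11.2 in day 7 injured libraries. In CPM the other groups overlapped, and the day 7 injured libraries lay above them all. In TPM the day 7 injured libraries overlapped with naïve and day 1 injured ones. The rise over naïve was 1.83-fold (log2 0.88, SE 0.13, FDR 0.000164 in edgeR). Cxcl16 (chr11:70453983-70459984), the ligand of Cxcr6, had 4.89, 5.90 and 13.6 CPM in naïve, 4.69, 7.14 and 12.3 in day 1 contralateral, 5.30, 10.1 and 5.72 in day 1 injured, 7.25, 5.71 and 6.69 in day 7 contralateral and 15.7, 19.5 and 21.1 in day 7 injured libraries. Its values of 13.6, 12.3 and 10.1 CPM came from the 3 libraries of high Ccl2 and Ccl7. Against naïve it rose 2.71-fold (log2 1.44, SE 0.33, FDR 0.0041 in edgeR), and 1.73 on the log2 scale without those libraries. Their receptors did not pass the test, with log2 fold changes of 0.33 for Cx3cr1 (FDR 0.313) and -0.26 for Cxcr6 (FDR 0.557). Without the 3 libraries, which hold the highest Cx3cr1 values, Cx3cr1 was at 0.50 with an FDR of 0.000649 in edgeR, under the 1.5-fold limit, and Cxcr6 at -0.24 (FDR 0.639). The libraries were left out after the data were seen. The values of Cx3cr1 without them therefore follow in part from that choice and are a description with no test.

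The windows at the starts of Ackr3 (chr1:90203730-90204029, plus strand) and Cx3cl1 (chr8:94771930-94772229, plus strand) are shown as those of the members with the smallest FDRs at day 7. Capitals mark a TATAAA, the match that each of them holds, which ends 2 bases before the RefSeq start of Ackr3 and directly at that of Cx3cl1.
Ackr3: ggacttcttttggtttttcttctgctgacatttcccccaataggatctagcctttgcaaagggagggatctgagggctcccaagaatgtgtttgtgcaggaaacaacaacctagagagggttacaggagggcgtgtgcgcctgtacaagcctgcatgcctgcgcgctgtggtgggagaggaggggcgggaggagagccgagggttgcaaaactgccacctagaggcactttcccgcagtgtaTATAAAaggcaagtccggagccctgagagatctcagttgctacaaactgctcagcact
Cx3cl1: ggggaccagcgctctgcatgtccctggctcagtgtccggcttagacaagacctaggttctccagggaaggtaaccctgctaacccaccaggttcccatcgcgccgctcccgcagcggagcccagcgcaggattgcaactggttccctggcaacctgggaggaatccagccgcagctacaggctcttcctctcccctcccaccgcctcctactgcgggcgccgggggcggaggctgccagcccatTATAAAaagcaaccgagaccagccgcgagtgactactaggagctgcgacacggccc

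Ccl21a (chr4:42772860-42773993), made by lymphatic endothelium and lymphoid stroma and a ligand of Ccr7, had 5.85, 7.82 and 12.5 CPM in naïve libraries. It had 6.41, 4.16 and 5.82 CPM in day 1 contralateral, 14.5, 4.04 and 9.66 in day 1 injured, 4.68, 6.20 and 6.52 in day 7 contralateral and 23.5, 23.1 and 24.0 in day 7 injured libraries, which stood above all others. In TPM the day 7 injured libraries (12.0 to 16.3) overlapped with the day 1 injured ones (4.15 to 13.5). The rise over naïve was 2.81-fold (log2 1.49, SE 0.29, FDR 0.00132 in edgeR). Near copies make this gene uncertain, since 80.6% of its 31-base words also occur in Gm21541. Summed with Gm13304 and Gm21541, Ccl21a had 34.1, 33.0 and 27.6 CPM in day 7 injured libraries and between 5.66 and 18.1 in all others, so that the groups remained apart. Ccr7 had a log2 fold change of 0.31 (FDR 0.271 in edgeR). Ccl22, a ligand of Ccr4 made by dendritic cells and macrophages, was scarce, at 0.249, 0.534 and 0.676 CPM in naïve, 0.501, 0.552 and 0.724 in day 1 contralateral, 0.646, 0.954 and 0.373 in day 1 injured, 0.0779, 0.267 and 0.372 in day 7 contralateral and 0.999, 1.08 and 0.555 in day 7 injured libraries. Its day 7 injured libraries lay above those of day 7 contralateral and overlapped with the other groups. The change against naïve did not pass the test (log2 0.80, FDR 0.103). Of the 8 lymphocyte and dendritic cell attracting ligands tested, 1 was called higher and none lower, beside 10.4% and 6.11% of all genes.

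Ccr9 (chr9:123678439-123784330), the receptor of Ccl25 on thymocytes and gut-homing cells, was the member that fell. It had 6.13, 6.91 and 8.09 CPM in naïve, 6.87, 8.5 and 7.10 in day 1 contralateral, 6.33, 7.22 and 7.25 in day 1 injured, 4.91, 7.18 and 6.45 in day 7 contralateral and 5.13, 3.93 and 4.21 in day 7 injured libraries. The day 7 injured libraries lay below all naïve and day 1 libraries and overlapped with day 7 contralateral library 1. The level was 0.647 times that of naïve (log2 -0.63, SE 0.13, FDR 0.00154 in edgeR), near the limit of 1.5-fold, and it was under that limit without naïve library 6 (-0.58) or day 7 injured library 2 (-0.55). Ccr3, the eosinophil receptor, and Ccl25 itself were lower by log2 fold changes of -0.48 (FDR 0.00518) and -0.47 (FDR 0.0133), and Cxcr4 by -0.33 (FDR 0.0221), all under the 1.5-fold limit. Of 8 CC receptors tested 1 was called lower, and of 8 CXC, C and CX3C receptors none was called, beside 10.4% of all genes higher and 6.11% lower.

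**Figure D5:**
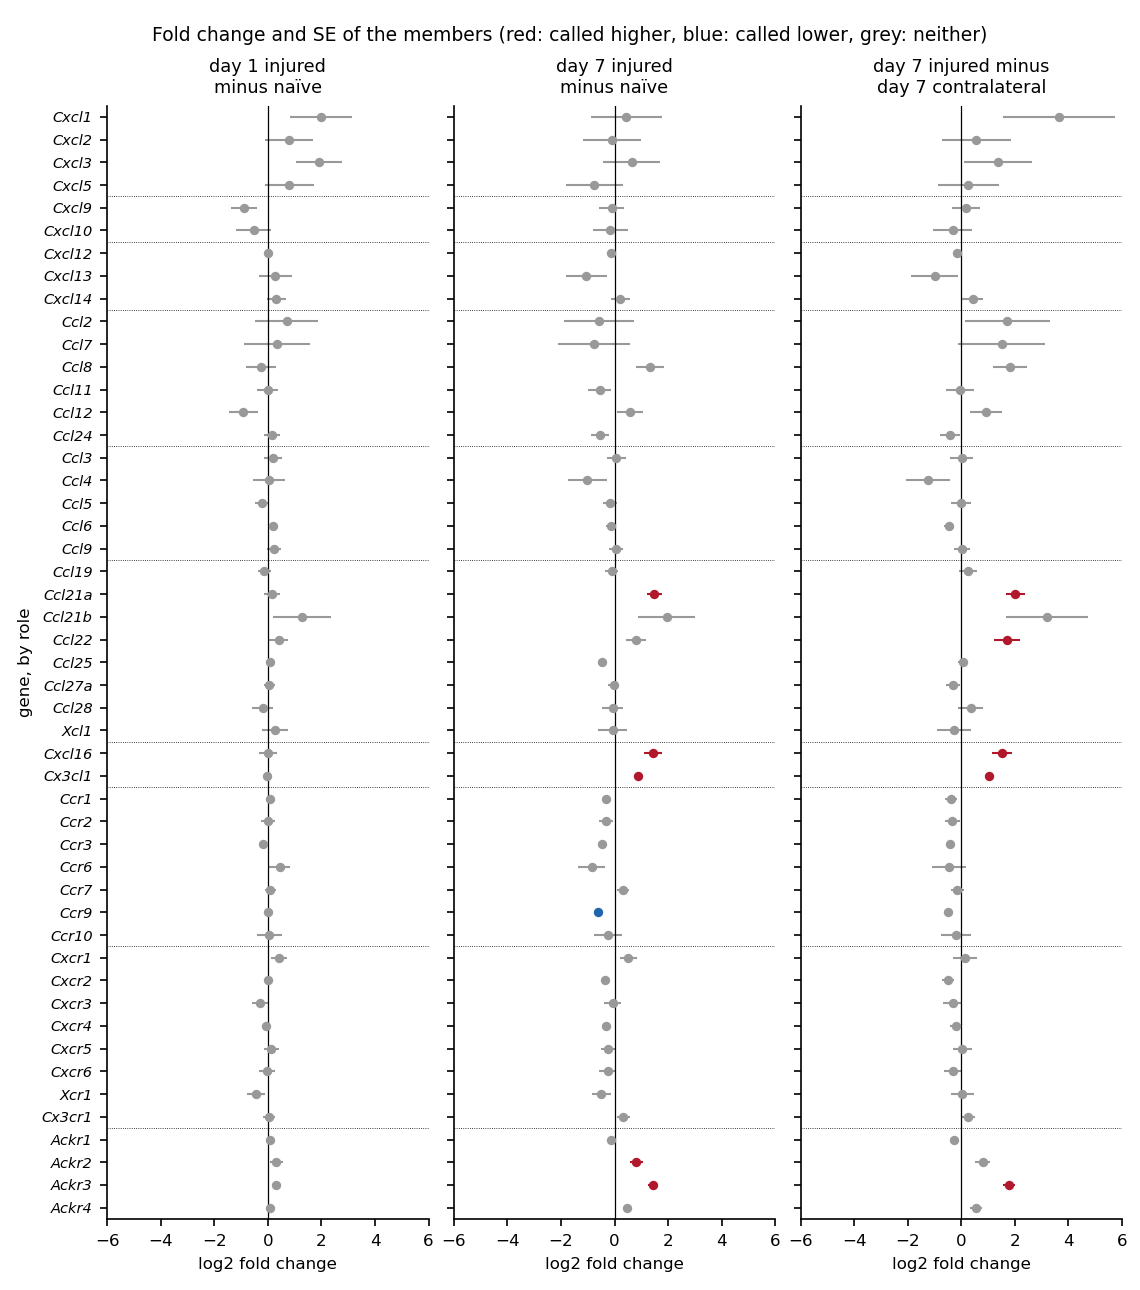
Log2 fold change (points) and SE (lines) of 49 members tested, by role, for day 1 injured minus naïve, day 7 injured minus naïve and day 7 injured minus day 7 contralateral libraries. No point is coloured as called in the day 1 panel, 5 are red and 1 is blue against naïve at day 7, and 5 are red against contralateral.

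Inflammatory ligands did not pass the test against naïve cartilage at day 7. None of 4 ELR CXC chemokines, 6 monocyte and eosinophil attracting CC chemokines, 5 ligands of Ccr1 and related receptors, 2 ligands of Cxcr3 and 3 homeostatic CXC chemokines was called, beside the same shares of all genes. Ccl8, a further monocyte attractant, had 0.933, 2.55 and 5.13 CPM in naïve and 5.36, 7.98 and 5.92 in day 7 injured libraries, which lay above all others of the 18. Its log2 fold change was 1.33 (SE 0.53, FDR 0.0693 in edgeR). Ccl2 (-0.59, SE 1.31) and Ccl7 (-0.77, SE 1.35) had wide errors. Naïve library 5 held 17.9 and 26.9 CPM of them, and without it the values were 1.40 (FDR 0.347) and 1.43 (FDR 0.33 in edgeR). Their day 7 injured libraries had 1.68, 2.91 and 3.05 CPM of Ccl2 and 3.18, 3.23 and 3.24 CPM of Ccl7, above the naïve medians of 1.14 and 1.18 CPM. Cxcl12 did not pass either (-0.12, SE 0.09, FDR 0.358).

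Several of these ligands passed when the 3 libraries of high Ccl2 and Ccl7 were left out, an alternative chosen after the data were seen. Against naïve cartilage 8 members were then higher (10.6% of all genes) and 1 lower (6.89%). The 3 that joined were Ccl8 (log2 1.64, FDR 0.0290 in edgeR), Cxcl1 (2.10) and Ccl7 (1.41), while Ccl2 stood at 1.39. The libraries were picked for high Ccl2 and Ccl7 and include the highest naïve values of Cxcl1 and Ccl8 too. The values of the 3 genes that joined therefore follow in part from the choice and are a description with no test. Cxcl5 remained without a call (0.32, FDR 0.531). The 5 members called higher with all libraries were called without them as well.

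Against the contralateral knee at day 7, 5 of 50 members were higher and 0 lower, beside 9.33% and 3.23% of 21262 genes. Ackr3 rose 3.45-fold (log2 1.79, SE 0.22, FDR 2.06e-05 in edgeR), and Ccl21a 4.03-fold (2.01, SE 0.35, FDR 0.00057). Cxcl16 rose 2.87-fold (1.52, SE 0.38, FDR 0.00892) and Cx3cl1 2.06-fold (1.05, SE 0.17, FDR 0.000216). Ccl22 was 3.24-fold higher (1.69, SE 0.48, FDR 0.0199), at levels of no more than 1.08 CPM. Contralateral library 1 had 0.0779 CPM, below its limit of 3 counts, and without that library the fold change of Ccl22 was 1.43 on the log2 scale with an FDR of 0.0539. No member was lower at 1.5-fold with all libraries in the fit, while Ccr9 (-0.49, FDR 0.0418) passed the FDR alone (6.16% of all genes lower). Without contralateral library 1, Ccr9 (-0.60, FDR 0.0113) and Cxcr2 (-0.69, FDR 0.0206) were called lower, beside 434 of all genes, and Ccr9 was called without day 7 injured library 1 as well (-0.61, FDR 0.0271). With all libraries, 12 of 50 members had an unadjusted p below 0.05 in either direction, and so had 6629 of the 21262 genes (31.2%). These comparisons share the day 7 injured libraries, so that the members they have in common are not independent evidence.

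All 3 injured libraries lay above all 3 contralateral ones in 14 members at day 7 (18.6% of all genes) and below in 1, Ccl6 (14.3% of all genes). Beside the called members these included Ackr2, Ccl2, Ccl7, Ccl8, Cxcl1, Cxcl3, Cxcl14 and Ccl21b, whose 31-base words all occur in other genes too. Ccl8 had 1.17, 2.63 and 1.59 CPM in the contralateral libraries, a log2 fold change of 1.81 (FDR 0.0578 in edgeR). Ccl2 had 0.468, 0.624 and 1.08 CPM and Ccl7 2.03, 0.758 and 0.845 there. A fit of these 6 libraries alone left out all naïve and day 1 libraries, the 3 of high Ccl2 and Ccl7 among them, and tested 18166 genes. Fewer members were tested there, since the filter on low counts removed Cxcl1, Cxcl2 and Cxcl3, among others. This fit called 8 members higher (9.36% of all genes) and 0 lower (1.54%). Ccl8 (1.81, FDR 0.00975), Ccl2 (1.73, FDR 0.0259) and Ccl7 (1.48, FDR 0.0438) were among those then called, and Ccl22 was not (FDR 0.0718). In the fit of all groups without the 3 libraries, 8 members were called higher too (9.61% of all genes), among them Ackr2 (0.80, FDR 0.0165) and Cxcl1 (3.62, FDR 0.00544 in edgeR). The 3 libraries were picked after the data were seen and hold the 3 highest Cxcl1 values, so that its call without them is a description with no test. Ccl8, Ccl2 and Ccl7 were not called in that fit, and Ccl22 was. The calls of Ccl8, Ccl2, Ccl7 and Ccl22 therefore depended on which libraries were fitted.

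From day 1 to day 7 in the injured knee, 4 members rose and 1 fell (9.04% and 6.38% of all genes), and by the FDR alone 4 were higher and 2 lower (16.2% and 8.2% of all genes). Cxcl16 was higher at day 7 by a log2 fold change of 1.42 (SE 0.40, FDR 0.0174), Ccl21a by 1.35 (SE 0.35, FDR 0.0125), Ackr3 by 1.10 (SE 0.21, FDR 0.0015) and Cx3cl1 by 0.92 (SE 0.16, FDR 0.000753 in edgeR). Ccr9 was lower, at -0.63 (SE 0.14, FDR 0.005), and no member was called lower without day 7 injured library 2 or 3 or with an offset for average transcript length.

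At day 1 no member was called. In injured against naïve, injured against contralateral and contralateral against naïve libraries, 0 of 50 members and 0% of all genes passed edgeR's test, and limma-voom called no gene either. DESeq2 called 15, 0 and 2 genes, none of them members. At an unadjusted p below 0.05 there were 1, 5 and 0 members, and 959, 1383 and 554 of the 21129 genes. Between injured and contralateral knees these were Ackr3 (log2 0.51), Ackr2 (0.61), Ccl21a (0.77), Ccl5 (-0.61) and Cxcl9 (-1.22), each with an FDR of 0.755. Without the 3 libraries of high Ccl2 and Ccl7 the values were 0.68, 0.85, 1.20, -0.54 and -1.49 in the same order, with FDRs from 0.253 to 0.651 in edgeR. The member against naïve was Cxcl3 (1.91, SE 0.87, FDR 0.987), for which day 1 injured libraries 1 and 2 had 0.679 and 1.65 CPM and library 3 had 0.249. It stood at 1.75 (FDR 0.664) without the 3 libraries. Left without the 3 libraries of high Ccl2 and Ccl7, the day 1 comparisons still gave 0 calls among members and among all genes.

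The contralateral knee at day 7 did not differ from naïve in any member that passed the test. Here too edgeR called 0 members and 0% of genes, limma-voom 0 genes and DESeq2 31 genes, none of them members, while 3220 of 21262 genes had an unadjusted p below 0.05. Among members these were Ccl25 (log2 -0.54, FDR 0.248) and Ccr7 (0.44, FDR 0.33). For Ccl25 the contralateral libraries had 4.21, 6.95 and 6.29 CPM and the naïve libraries 7.34, 8.41 and 10.8 (lowest, median, highest), without overlap and with the lowest value in library 1. The other 2 contralateral libraries lay below all naïve ones too.

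Whether the injury effect differed between the days was tested as the difference between injured and contralateral knees at day 7 minus that at day 1. Ackr3 (log2 1.28, SE 0.31, FDR 0.0244) and Cx3cl1 (0.91, SE 0.23, FDR 0.0351) were called in edgeR, 2 of 50 members higher and 0 lower, beside 3.53% and 0.245% of all genes (3.77% in either direction, and 3.72% higher by the FDR alone). Cxcl16 (1.72, FDR 0.0834), Ccl21a (1.23, FDR 0.201) and Ccl22 (1.54, FDR 0.222) did not pass. Without the 3 libraries of high Ccl2 and Ccl7 the calls changed, to Cxcl16 (1.63, FDR 0.00376), with Ackr3 at 1.11 (FDR 0.105) and Cx3cl1 at 0.64 (FDR 0.218). These libraries were picked after the data were seen and hold the 3 highest Cxcl16 values outside the day 7 injured group. The call of Cxcl16 without them is therefore a description with no test. No member was called without day 1 injured library 1 or 3, day 1 contralateral library 3 or day 7 injured library 3, and 1 was called without day 7 contralateral library 2 or day 7 injured library 2.

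Genes that act with the family were counted at day 7 against naïve, where 10.4% of all genes were higher and 6.11% lower. Of 15 proteases that trim or shed chemokines, 4 rose and none fell, namely Mmp2 (log2 3.29, FDR 1.81e-09), Mmp14 (2.82, FDR 4.61e-09), Mmp13 (0.88, FDR 0.00774) and Ctsb (0.64, FDR 0.00301 in edgeR). Mmp2, a gelatinase that cleaves Ccl7 and Cxcl12, had 1076 to 1421 CPM in the day 7 injured libraries and 82.8 to 179 in all others. Adam17, a sheddase of Cx3cl1 and Cxcl16, had 83.5 to 90.7 CPM against 58.2 to 72.7 elsewhere, without overlap and under the 1.5-fold limit (0.42, FDR 0.0011), and Adam10 stood at -0.04 (FDR 0.767).

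Of 41 signalling genes below the receptors, 2 rose and 1 fell. Rgs16, which shortens Gi signalling, rose by 2.21 on the log2 scale (FDR 0.000301), from 1.09 to 2.75 CPM in naïve to 5.83 to 7.96 CPM in day 7 injured libraries. Ptk2, encoding focal adhesion kinase, rose by 0.71 (FDR 7.81e-05), and Rgs18, a gene of platelets and myeloid cells, was at -0.65 (FDR 0.000832). Among 26 cytokine and NF-kB genes that induce chemokines, Il1r1, the interleukin 1 receptor, was the member called (0.88, FDR 0.0153 in edgeR), with 44.5 to 56.0 CPM in day 7 injured and 21.6 to 41.7 in naïve libraries. Tnf (-0.23, FDR 0.301), Il1b (0.16, FDR 0.688) and Il6 (0.02, FDR 0.988) did not pass. Of 8 genes of the chemokine system with other symbols, the platelet chemokine Ppbp was called lower (-0.62, FDR 0.00116) and none higher.

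Against the contralateral knee the numbers were 4 and 0 of 15 proteases, 2 and 6 of 41 signalling genes, 1 and 1 of 26 inducers and 1 and 1 of 8 genes with other symbols, higher and lower, beside 9.33% and 3.23% of all genes. The last pair were Mif (0.68, FDR 0.0447), a cytokine that binds Cxcr2 and Cxcr4, and the platelet chemokine Pf4 (-1.05, FDR 0.025). At day 1 no gene of these lists was called.

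Markers of other cells moved with the day 7 members. The counts called against naïve stand beside 10.4% of all genes higher and 6.11% lower. Of 8 synovial fibroblast markers 4 rose against naïve and none fell, with sums of 742, 870 and 891 CPM in the day 7 injured libraries and 309 to 483 in all others. Pdgfra was the most abundant gene of that list, and Thy1 (log2 1.91, FDR 4.77e-07) and Dpt (2.35, FDR 1.31e-05) were among those that rose. Of 9 endothelial markers, led by Vwf, 4 rose, with sums of 658, 656 and 726 CPM against 489 to 630 elsewhere, and of 5 pericyte and smooth muscle markers, led by Rgs5, 3 rose. Adipocyte markers, led by Cfd, fell in 5 of 8, erythroid markers, led by Hbb-bs, in 4 of 8, megakaryocyte markers in 2 of 5 and neutrophil and marrow myeloid markers, led by Ngp, in 2 of 10. None of 11 macrophage and monocyte, 9 T and NK cell, 6 dendritic cell and 6 mast cell markers was called. Chondrocyte markers were called higher in 3 and lower in 1 of 13. The B lineage and skeletal muscle lists had 1 gene lower each, marrow stroma and osteoclast lists 1 gene higher each, and the osteoblast list 1 in each direction. The part of these cells in the values of Ackr3, Cx3cl1, Cxcl16, Ccl21a, Ackr2 and Ccr9 was not tested.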

How the data were processed

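Reads were trimmed by the authors and pseudo-aligned with Kallisto, per the paper's methods to the mouse transcriptome of GRCm38, although the labels name GRCh38, a human build. The deposited values were the estimated counts and TPM of Kallisto for each transcript, without further normalisation by the authors. Estimated counts were summed to 49184 genes by the GENCODE annotation of GRCm38 and rounded, and TPM was used for levels per length. Transcripts without a gene there held 0.667% to 3.90% of the counts and were left out. A text of the series states pools of 4 mice throughout and medial caps, which differs from the pooling of the study's methods given here.

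Groups were taken from the labels. The study's methods state that an ACL library of low mapping rate was left out without saying which. All 18 deposited libraries were used here, and whether it is among them is not known. Comparisons were tested with edgeR 4.0.16 in R 4.3.3 (quasi-likelihood, TMM normalisation and its filter on low counts), on 15 libraries for 5 comparisons without the day 7 contralateral group and on all 18 for the 3 others. FDRs are Benjamini-Hochberg values over all genes tested. Calls needed an FDR ≤ 0.05 and a change ≥ 1.5-fold. DESeq2 1.42.0, limma-voom 3.58.1, other filters and offsets and libraries left out were tried as alternatives. The tests were checked on simulated data. Floors and limits of 3 counts cover counting error only. SEs were derived from edgeR's quasi-likelihood test and include the spread between libraries.

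The members, the gene lists and the rule for named genes were chosen with earlier results of these data known. Values per library were given for members called at day 7, for the 4 ligands and 4 receptors of the highest naïve TPM, and for 11 members added after their values were seen: Ccl2, Ccl7, Ccl8, Cxcl1, Cxcl2, Cxcl3, Cxcl5, Cx3cr1, Ccr3, Ccl25 and Ackr4. Cxcl9, Cxcl10 and the genes given beside the 3 libraries of high Ccl2 and Ccl7 were also named after their values were seen. Some genes that were measured are not reported here. Promoter windows were those of RefSeq on GRCm38.p6.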

Additional observations from a re-analysis of the deposited data

Results flagged for a closer look

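Naïve library 5 stood far from the other 5 naïve libraries, by its gap to the nearest of them, in 10 of the 26 members whose naïve values were tested. Its values were 26.9 CPM for Ccl7, 17.9 for Ccl2, 15.1 for Cxcl5, 4.06 for Cxcl1, 0.796 for Cxcl2, 0.676 for Cxcl3, 13.6 for Cxcl16, 93.7 for Cxcl14, 42.9 for Cx3cr1 and 236 for Ccr2. The gap took 0.964 of the whole naïve range for Ccl7 and 0.707 for Cxcl3. Of the 26 members, 11 had been added after their values were seen, and 7 of the 10 are among these (Ccl2, Ccl7, Cxcl1, Cxcl2, Cxcl3, Cxcl5 and Cx3cr1), so that the count is a description and no test. Naïve library 1 stood apart from the rest of its group for Ccl25 alone, at 10.8 CPM. Chance marks about 1 in 20 groups of 6 in this way, and these members are not independent of each other.

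The injury effect differed between day 7 and day 1 for Ackr3, by 1.28 on the log2 scale, and for Cx3cl1, by 0.91, in the test of the difference itself (edgeR, FDR 0.0244 and 0.0351). Without the 3 libraries of high Ccl2 and Ccl7 the differences were 1.11 (FDR 0.105) and 0.64 (FDR 0.218) and neither was called, while over all genes 515 were higher in place of 750.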

How the results depend on the processing

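No paired analysis was possible because the labels give no pairing of injured and contralateral libraries and the replicate numbers used here are only names. The study's limma-voom model estimated a correlation between libraries of the same mouse pool, and since the labels do not say which libraries share one, that step was not repeated and libraries were taken as independent.

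The rises of Ackr3, Cx3cl1, Ccl21a and Cxcl16 at day 7 against naïve and contralateral cartilage were called at an FDR of 0.05 under every alternative run for them. Alternative settings changed these counts of members. Against naïve, 8 were higher without the 3 libraries of high Ccl2 and Ccl7 and 4 were lower by the FDR alone, and leaving out single libraries gave 4 to 6 higher and 0 to 1 lower. Against day 7 contralateral, 8 were higher when only the compared groups were fitted and 8 without the 3 libraries, 1 was lower by the FDR alone, and single libraries left out gave 4 to 5 higher and 0 to 2 lower, the 2 being Ccr9 (-0.60) and Cxcr2 (-0.69) without day 7 contralateral library 1. Between the injured knees, day 7 against day 1, 2 were higher at an FDR of 0.01. There 2 were lower by the FDR alone and 0 with an offset for average transcript length, where Ccr9 lost its call. Without the 3 libraries 3 were lower, with Ccl11 and Ccl24 added, beside 5.89% of all genes. Single libraries left out gave 3 to 4 higher and 0 to 2 lower. For the difference between the injury effects, 0 were higher at an FDR of 0.01 and with the length offset, 1 without a filter on low counts, 1 with only the compared groups fitted and 1 without the 3 libraries, and single libraries left out gave 0 to 3. Counts over all genes moved too. With single libraries left out they ran from 1836 to 2292 higher and 797 to 1425 lower against naïve, 1508 to 2030 and 279 to 1058 against contralateral, 1584 to 1956 and 849 to 1173 between the injured knees, and 393 to 892 higher for the difference between the injury effects. That difference had 516 genes higher with the length offset, 648 without a filter, 521 with only the compared groups fitted and 515 without the 3 libraries.

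Ackr2 lost its call against naïve with the length offset (0.62, FDR 0.243). Ccl8 was called against naïve by limma-voom (1.55, FDR 0.0384) and without naïve library 5 (1.65, FDR 0.0255), and against contralateral by DESeq2 (1.82, FDR 0.0173). Ccl22 lost its call against contralateral without day 7 contralateral library 1 (FDR 0.0539) or 2 (FDR 0.0501) and without day 7 injured library 1 (FDR 0.0587) or 2 (FDR 0.0672). Signs turned in members that were not called. Against naïve, limma-voom gave 0.74 for Ccl2, 0.69 for Ccl7 and 0.064 for Cxcl2. The fit without the 3 libraries gave 1.39 for Ccl2, 1.41 for Ccl7 and 0.32 for Cxcl5, and, against contralateral, the length offset gave -0.15 for Cxcl2. With single libraries left out, the log2 fold change against naïve ran from -0.83 to 1.40 for Ccl2, -1.0 to 1.43 for Ccl7, -0.57 to 2.13 for Cxcl1, -0.70 to 0.37 for Cxcl2, -0.95 to 0.34 for Cxcl5 and -0.030 to 0.21 for Ccl9. Against contralateral it ran from -0.079 to 0.18 for Ccl9, -0.035 to 1.73 for Cxcl2 and -0.10 to 0.18 for Ccl25. The cause was not tested. Members under about 1 CPM, such as Cxcl2, Cxcl3 and Ccl22, rest on few counts. No alternative moved the median of all genes by more than 0.0568.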
